A study of Mus musculus with 8 samples.

Results

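The G2 and mitosis genes are 40 genes whose products carry a cell from the end of DNA replication through chromosome segregation to the separation of the daughter cells, among them cyclins and their kinase, mitotic kinases, kinesins, kinetochore proteins and the checkpoint that watches over chromosome attachment. They were followed in sorted epithelial cells of mouse skin tumours in which the transcription factor gene Twist1 was deleted, alone or together with the p53 gene. A listed gene was kept where both value tables held a probe set, the group of array probes that reads 1 transcript, whose annotation names that gene and no other, and where a table held several, the one with the highest mean there stood for the gene. This left 38 of the 40 listed genes, of 18193 and 17084 genes with such a probe set in the Twist1 and the Twist1/p53 table. Ccnb1, the gene of cyclin B1, had no single-gene probe set in either table and was not analysed here, and Nuf2, a part of the kinetochore, had one in the Twist1 table alone. All 38 passed the filter on low values in both tables, so none was lost to it.

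The data comprised 8 Affymetrix arrays in 4 groups of 2. All tumours had been induced with DMBA, which mutates DNA, and TPA, which drives the growth of mutated skin cells, and all mice, controls included, had received 5 doses of 2 mg tamoxifen. The Twist1 deletion group was K14CreER:Twist1fl/fl, in which tamoxifen activates a recombinase driven by the keratin 14 promoter of basal epithelial cells, and its control group was Twist1fl/fl. The Twist1/p53 deletion group was K14CreER:Twist1fl/fl:p53fl/fl and its control group was Twist1fl/fl:p53fl/fl. Both control groups thus carried the floxed alleles and no Cre. The mice were littermates of a mixed background, and their ages are not given in the sources used here. Tumour cells had been sorted as Epcam-positive cells negative for CD45, CD31, CD140a and the dead-cell stain DAPI, which takes out leukocytes, endothelial cells and fibroblasts. The labels do not say whether the 2 arrays of a group came from separate mice, so p-values measure the spread between these arrays, which may be technical. The arrays of a deletion were set against their own controls, on 1 array type and in 1 table, and array values are on a log2 scale, so that a log2 change below 0 is a lower reading in the deletion arrays.

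Most G2 and mitosis genes are transcribed late in the cell cycle and are nearly silent in resting cells, so that their RNA is widely read as a sign of how many cells of a tissue divide. Their promoters are held down in resting cells and in early G1 by complexes of the MuvB proteins with an RB relative, and are switched on when MuvB joins B-Myb and later Foxm1. MuvB binds a short element called CHR through its Lin54 subunit, and the factor NF-Y binds CCAAT boxes placed before it. In tumour epithelium the p53 target Cdkn1a, whose product p21 blocks cyclin-dependent kinases, is a known brake on this programme. In bulk RNA such as this, fewer dividing cells and less of these transcripts per cell cannot be told apart.

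The shared promoter design is shown first, because it is what the genes have in common beside their function and was not used to choose them. RefSeq promoter windows of mouse assembly GRCm38.p6, 250 bases before to 50 bases after the annotated start, were matched by symbol for 32 of the 38 genes (34 windows), with none for Ccna2, Cdc25c, Aurkb, Kif20a, Tpx2 and Foxm1. The letters searched on both strands were TTTGAA and TTCGAA for the CHR, CCAAT for the NF-Y box, and CATCTG for an E-box, the class of site that Twist1 dimers bind. The last 120 bases before the start are printed for 7 genes, 5′ to 3′ on the strand of the gene, with each CHR and CCAAT match on either strand in capitals (reverse matches read TTCAAA and ATTGG). Ccnb2, Cdk1, Cdc20, Top2a and Ube2c show the arrangement with several CCAAT boxes or with the CHR close to the start, Aurka shows CCAAT boxes whose CHR lies past the start, and Nusap1 shows a member with neither.
Ccnb2, chr9:70421555-70421674, minus strand: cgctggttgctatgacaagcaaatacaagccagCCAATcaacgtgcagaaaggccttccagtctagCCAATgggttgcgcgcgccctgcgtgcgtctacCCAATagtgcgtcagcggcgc
Cdk1, chr10:69352913-69353032, minus strand: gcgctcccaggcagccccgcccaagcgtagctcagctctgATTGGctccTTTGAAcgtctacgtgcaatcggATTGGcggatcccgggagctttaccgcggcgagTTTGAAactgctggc
Cdc20, chr4:118437344-118437463, minus strand: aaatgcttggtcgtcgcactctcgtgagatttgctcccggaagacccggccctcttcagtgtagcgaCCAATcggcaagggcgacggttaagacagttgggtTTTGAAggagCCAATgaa
Top2a, chr11:99024190-99024309, minus strand: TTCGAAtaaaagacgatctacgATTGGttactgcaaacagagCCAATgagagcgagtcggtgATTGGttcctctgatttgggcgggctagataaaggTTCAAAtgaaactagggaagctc
Ube2c, chr2:164769809-164769928, plus strand: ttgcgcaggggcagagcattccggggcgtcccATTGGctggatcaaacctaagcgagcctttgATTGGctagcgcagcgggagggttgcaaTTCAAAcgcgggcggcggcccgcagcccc
Aurka, chr2:172370571-172370690, minus strand: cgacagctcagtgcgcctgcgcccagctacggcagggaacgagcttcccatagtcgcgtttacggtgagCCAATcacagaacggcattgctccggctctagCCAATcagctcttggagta
Nusap1, chr2:119618178-119618297, plus strand: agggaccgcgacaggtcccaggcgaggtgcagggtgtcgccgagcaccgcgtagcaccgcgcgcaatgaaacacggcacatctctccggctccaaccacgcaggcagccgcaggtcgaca

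In Ccnb2 the CCAAT boxes began at positions -87, -54 and -21 (bases from the start, negative before it), at equal steps of 33 bases, and a CHR began at position 5. In Cdk1, the gene of the kinase that cyclin B activates, a CHR began at -15, with reverse CCAAT boxes at -48 and -80, and in Cdc20 one began at -18, between CCAAT boxes at -53 and -8. Top2a held 6 CCAAT boxes and 4 CHR matches in its whole window, and Ube2c held 6 CCAAT boxes and 1 CHR. A CHR was found in 26 of the 32 genes (81.2%), against 21.7% of the 27025 genes with a window, and it began within 50 bases of the start in 23 of the 32 (71.9%), against 6.12% of all genes. At least 1 CCAAT box was found in 25 of 32 (78.1%, against 41.1% of all), at least 2 in 16 of 32 (13.3% of all), and a CHR together with at least 2 CCAAT boxes in 15 of 32, or 46.9%, against 2.67% of all genes. The E-box letters occurred in 3 of 32 (Nusap1, Cenpa and Birc5, 9.38%), against 19.2% of all genes. Mad2l1, Pttg1, Nusap1 and Birc5 had neither a CHR nor a CCAAT match in these windows. A match is a description of letters in a window and not a sign of binding.

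**Figure D1:**
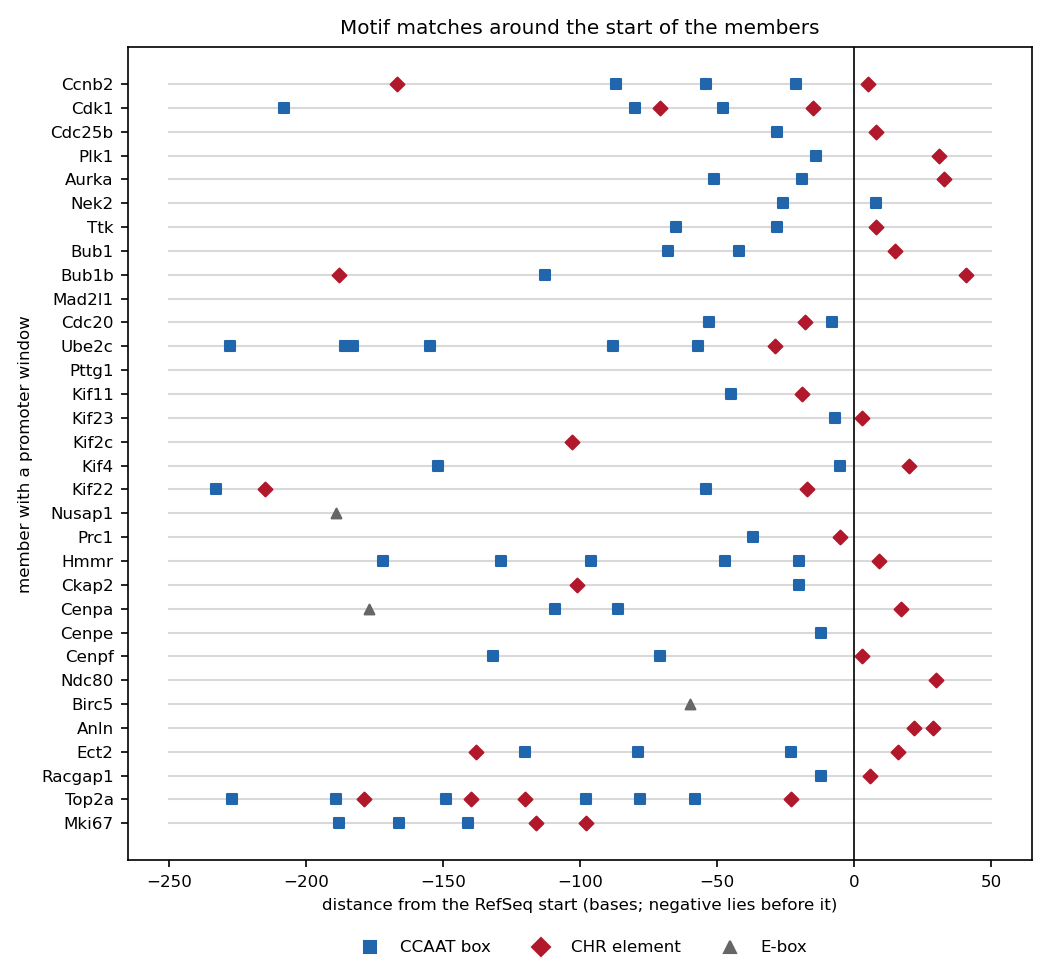
Positions of CCAAT boxes (blue squares), CHR elements (red diamonds) and E-boxes (grey triangles) on either strand in the RefSeq promoter windows of the 32 G2 and mitosis genes that have one, as distance from the annotated start in bases, negative before it. CHR matches crowd around the start in 23 of 32 genes, with CCAAT boxes mostly before them.

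After Twist1 deletion the G2 and mitosis genes read lower almost without exception, each by a modest amount and none beyond the threshold of the genome-wide test. Of 38 genes, 37 had a lower mean in the deletion arrays, against 54.2% of all 14554 genes tested, and the median log2 change was -0.45, against -0.03 over all genes. In 30 of the 38 both deletion arrays lay below both controls (24.7% of all genes), and in none did both lie above them (17.9% of all). The changes ran from -0.94 in Cdc25b to 0.03 in Ckap2. With limma and Benjamini-Hochberg adjustment over all genes tested, 0 of 38 had an adjusted p under 0.05 (0.0344% of all genes did, 5 in number). At an unadjusted p under 0.05, 20 of 38 were lower and 0 higher, where the shares over all genes were 5.81% and 3.36%. This count moved when an array was left out, and not always in the same direction as the share over all genes. It was 3 without control 1 and 4 without control 2, when 3.59% and 3.84% of all genes had such a p in either direction, against 9.17% with all arrays. Without deletion array 1 or 2 it was 23 or 15, when 17.4% and 13.7% of all genes had one. The lone array of a group was assumed to vary like the other group.

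The targeted gene was read first as a check on the labels. Twist1 read 5.20 and 7.18 in the controls of its table against 3.81 and 3.90 after deletion, a log2 change of -2.33 (SE 0.64) with limma adjusted p = 0.5, where the controls themselves lay far apart. In the Twist1/p53 table it read 6.15 and 6.04 in the controls against 4.82 and 5.01 after deletion, a change of -1.19 (SE 0.14) with limma adjusted p = 0.0413. In both tables both deletion arrays lay below both controls, as the labels have it. Cdkn1a read 11.30 and 11.33 in the Twist1 controls against 11.79 and 11.41 after Twist1 deletion, both above the controls, with a change of 0.28 (SE 0.16) and limma adjusted p = 0.621. With both genes deleted it read 11.97 and 12.08, against 12.02 and 12.07 in the controls, a change of -0.02 (SE 0.06) with overlapping groups.

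Several array measures differed along with the Twist1 groups. Xist, which is read from the inactive X of females, was 11.81 and 11.88 in the Twist1 controls against 6.98 and 6.07 in the deletion arrays, and in the Twist1/p53 table it was 10.9 and 10.9 against 4.06 and 3.66. The Y-linked Eif2s3y ran the other way in both tables, so that sex and deletion cannot be told apart in either comparison, nor can the presence of Cre. The 3′ minus 5′ log2 difference of the Gapdh control probe sets, which grows as RNA is shortened, was 0.038 and 0.034 in the Twist1 controls against 0.224 and 0.298 in the deletion arrays, and for Actb it was 0.627 and 0.634 against 0.946 and 0.785. The mean of the poly-A spike-in probe sets was 8.22 and 9.14 against 9.49 and 10.5. Krt5 and Krt14, keratins of basal epithelium, were read in every array, Krt5 at 13.67 and 13.59 in the Twist1 controls against 13.09 and 13.38 in the deletion arrays. Epcam, the marker of the sort, was above both controls in both deletions, at 10.82 and 11.62 after Twist1 deletion over controls of 10.38 and 10.54, and at 10.95 and 11.01 after Twist1/p53 deletion over controls of 10.42 and 10.46. Of the leukocyte, endothelial, fibroblast, melanocyte and muscle lists, 9 of 12, 2 of 5, 6 of 6, 3 of 4 and 2 of 4 markers passed the filter in that table, the leukocyte gene Ptprc not among them, and their median changes were 0.07, 0.10, 0.07, 0.50 and 0.17. Markers of differentiating epidermis were lower in 5 of 6 (median -0.96), their log2 summed level being 14.03 and 13.95 in the controls against 13.73 and 11.94. Lor was the one higher, at 5.41 and 5.64 in the controls against 9.11 and 6.13 (2.10, SE 0.96). Among the lower ones, Tgm3 and Sprr1b had overlapping groups. The part of these measures in the results on the G2 and mitosis genes was not tested.

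Among the cyclins, Cdk1 and the Cdc25 phosphatases, all 5 measured genes had both Twist1 deletion arrays below both controls (24.7% of all genes did). Their median change was -0.50. Ccna2, the cyclin that acts in S phase and G2, read 10.37 and 10.47 in the controls against 9.90 and 9.83 after deletion, so that the deletion arrays held 67.9% of the control level, a log2 change of -0.56 (SE 0.12) with limma adjusted p = 0.439. Cdc25b, a phosphatase that starts the activation of Cdk1, had the lowest change of all 38, from 9.14 and 9.14 to 8.67 and 7.73, or -0.94 (SE 0.33), and its deletion arrays lay nearly a log2 unit apart. Cdk1 itself read 10.56 and 10.63 against 10.33 and 10.27, a change of -0.30 (SE 0.12). Ccnb2, a B-type cyclin, was far below its controls of 9.98 and 9.99 in deletion array 1, at 9.20, and just below them in array 2, at 9.87. Cdc25c, a phosphatase that acts on Cdk1 at the entry into mitosis, had a change of -0.50 (SE 0.20). After Twist1/p53 deletion the same 5 had a median of -0.34, and 2 of them lay below both controls, where 29.8% of all genes did so in that comparison. Cdc25b again lay lowest, at 9.11 and 9.07 in the controls against 8.38 and 8.67 after deletion (-0.56, SE 0.15, limma adjusted p = 0.141), and Ccna2 read 9.97 and 9.997 against 9.87 and 9.41. Cdk1 was at 9.72 and 9.73 in those controls against 9.90 and 9.47 in the deletion arrays, 1 above and 1 below, with a change of -0.04 and a 95% interval of -0.48 to 0.40. Ccnb2 and Cdc25c had changes of -0.15 and -0.36 with overlapping groups.

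The 6 mitotic kinases had a median change of -0.50 after Twist1 deletion and of -0.02 after Twist1/p53 deletion. Aurka, the kinase of centrosomes and spindle poles, read 9.39 and 9.36 in the Twist1 controls against 8.90 and 8.33 in the deletion arrays, which held 59.1% of the control level (-0.76, SE 0.22, limma adjusted p = 0.508), or a change of -0.45 with the mean over its probe sets. Aurkb, the kinase of the chromosomal passenger complex, which corrects wrong attachments of chromosomes to the spindle, read 8.56 and 8.28 against 8.07 and 7.51 (-0.63, SE 0.25). Nek2, a centrosome kinase, Ttk, which starts the spindle checkpoint, and Bub1, a checkpoint kinase of the kinetochore, had changes of -0.50, -0.50 and -0.35, each with both deletion arrays below both controls. Plk1, which acts from mitotic entry to cytokinesis, was the exception, at 9.07 and 9.15 in the controls against 9.20 and 8.68 in the deletion arrays, with a change of -0.17 and a 95% interval of -0.71 to 0.38. With Twist1 and p53 deleted together, no kinase had groups that did not overlap, where 54.3% of all genes had such groups. Aurkb read 9.19 and 9.15 in those controls against 9.32 and 9.13 after deletion (0.05, SE 0.12), while its other probe set there had a change of -0.33, so that the sign depends on the probe set. Aurka read 8.78 and 8.89 against 8.92 and 8.39, with deletion array 1 above the controls and array 2 below them. Plk1 and Bub1 had the lowest and the highest moderated t of the group, at -0.15 (SE 0.15) and 0.15 (SE 0.18), and Nek2 and Ttk were at -0.07 and 0.02.

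The spindle checkpoint holds back the anaphase-promoting complex, with which Cdc20 and the ubiquitin-conjugating enzyme Ube2c mark proteins for destruction at anaphase, securin (Pttg1) among them. In this group 4 of 5 genes had Twist1 deletion arrays below both controls, where 24.7% of all genes did. Bub1b, the gene of the checkpoint protein BubR1, read 9.08 and 9.16 in the controls against 8.59 and 8.65 after deletion (-0.50, SE 0.14, limma adjusted p = 0.5). The mean over its probe sets, 1 of them dim and of opposite sign, had a change of -0.18. Cdc20 read 11.49 and 11.62 against 11.35 and 11.16 (-0.30, SE 0.13), and Ube2c 11.12 and 11.08 against 10.96 and 10.49 (-0.38, SE 0.18). Pttg1 had controls of 11.94 and 11.35, the widest pair of Twist1 controls among the 38 genes, and read 11.24 and 11.003 after deletion. Mad2l1, which binds Cdc20 in the checkpoint, was at 10.04 and 10.06 in the controls against 10.10 and 9.90 after deletion, a change of -0.05 with a 95% interval of -0.39 to 0.30. With both genes deleted the group divided. Cdc20 read 10.68 and 10.77 in the controls against 10.34 and 10.33 in the deletion arrays, and its change of -0.39 (SE 0.08) had the lowest limma adjusted p of the 38 in that comparison, 0.0928. Bub1b was also below both controls (-0.24, SE 0.12). Ube2c instead read 9.79 and 9.94 in the controls against 10.13 and 10.04 after deletion, above both controls (0.22, SE 0.10, limma adjusted p = 0.307), and Mad2l1 was above them too, by 0.12 (SE 0.10). Pttg1 had a change of 0.09 by its brightest probe set, 0.17 by another and -1.24 by the dimmest, so that its direction there depends on the probe set.

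**Figure D2:**
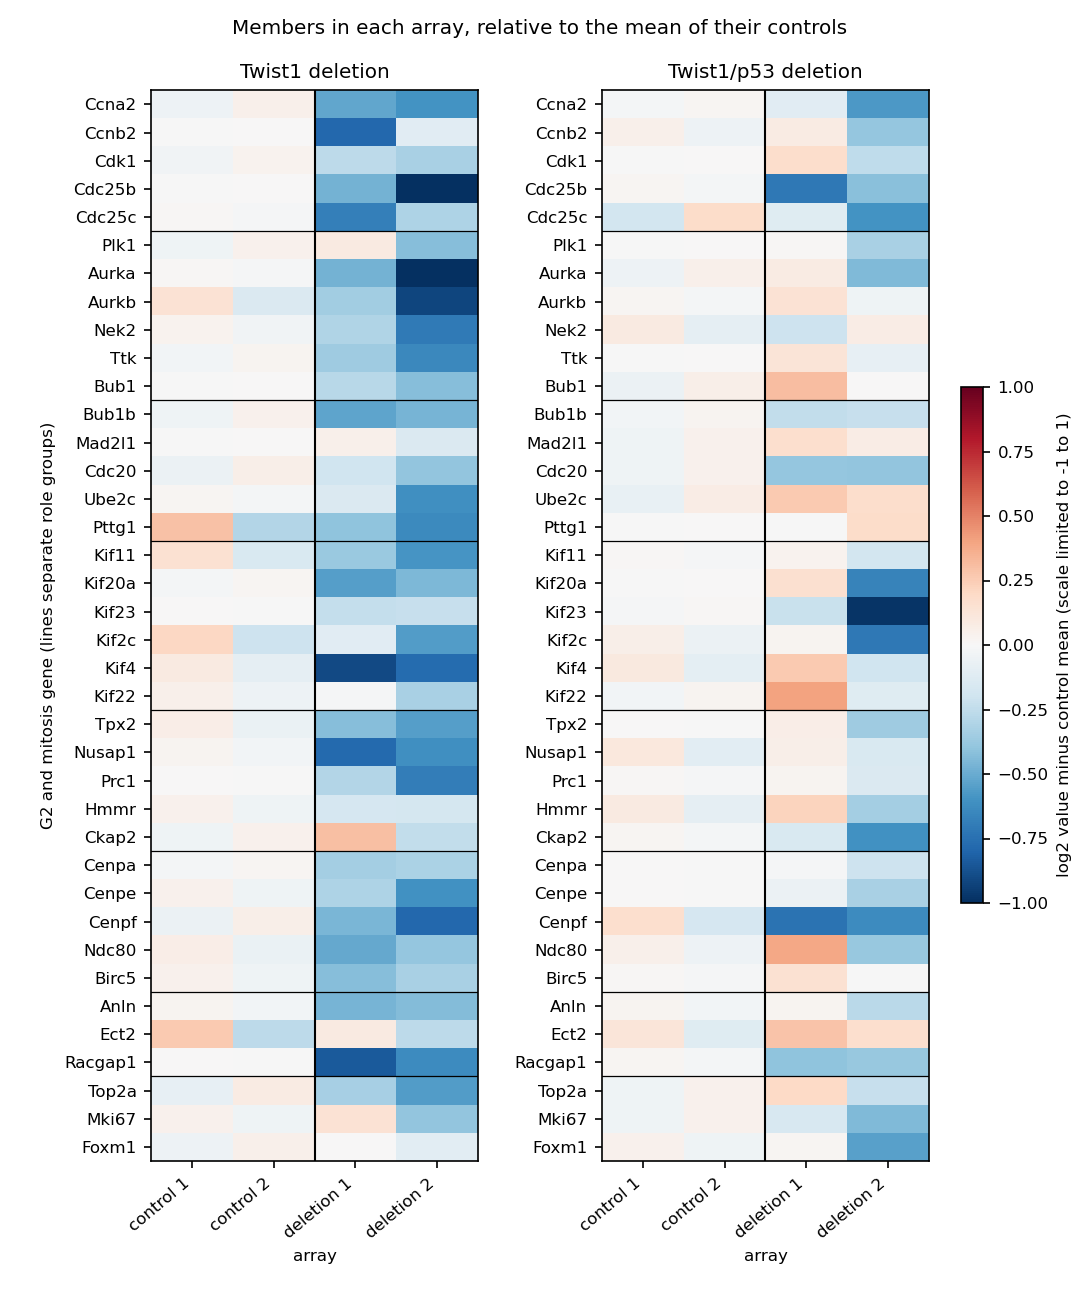
Value of each of the 38 G2 and mitosis genes (rows, with lines between role groups) in each of the 4 arrays of a comparison (columns), as log2 value minus the mean of the 2 controls, with blue below and red above the control mean and the scale limited to -1 and 1. After Twist1 deletion 32 and 38 of 38 genes lie below the control mean in deletion arrays 1 and 2, and after Twist1/p53 deletion 14 and 32 of 38.

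The kinesins move chromosomes and spindle microtubules. All 6 had lower means after Twist1 deletion (median -0.41), as did 54.2% of all genes. In 4 of them both deletion arrays lay below both controls, against 24.7% of all genes. Kif4, which shapes chromosomes and the central spindle, read 8.58 and 8.40 in the controls against 7.59 and 7.71 after deletion, 56% of the control level, with the moderated t farthest from 0 of the 38 genes (-0.84, SE 0.16, limma adjusted p = 0.413). It lies on the X chromosome, and the groups differ in sex. Kif20a, a kinesin of cytokinesis, read 8.95 and 8.98 against 8.41 and 8.52 (-0.50, SE 0.14), and Kif11, which pushes the spindle poles apart, 8.61 and 8.31 against 8.09 and 7.87 (-0.48, SE 0.19). Kif23, a part of the central spindle, had controls of 9.62 and 9.62 and deletion arrays of 9.38 and 9.39, a small step with almost no spread (-0.23, SE 0.13). By the probe set that stood for Kif23 in the Twist1/p53 table, its Twist1 change was -0.78, and a dim one had 0.08. Kif2c, which takes microtubules apart at centromeres, and Kif22, which pushes chromosome arms outward, overlapped between the groups, with changes of -0.33 and -0.17 by their brightest probe sets. Both had lower readings by others, of -0.61 and -0.51 for Kif2c, beside a dim one of 0.15, and of -0.48 and -0.47 for Kif22, whose mean over probe sets gave -0.37. Their median after Twist1/p53 deletion was -0.16. Kif23 read 6.21 and 6.23 in the controls against 5.999 and 5.24 in the deletion arrays, both below (-0.60, SE 0.28), with array 2 far below array 1. Kif4 read 7.63 and 7.44 against 7.80 and 7.34, a change of 0.03 with a 95% interval of -0.53 to 0.59. Kif22 read 6.26 and 6.32 against 6.69 and 6.17 (0.14, SE 0.22), with -0.06 by its other probe set. Kif20a, Kif2c and Kif11 had changes of -0.26, -0.35 and -0.07, and Kif20a had the widest gap between deletion arrays of the 38 genes, 8.54 and 7.71.

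Of the 5 proteins that bundle or anchor spindle microtubules, 4 had both Twist1 deletion arrays below both controls (24.7% of all genes did). Nusap1, which links microtubules to chromosomes, read 9.34 and 9.29 in the controls against 8.54 and 8.71 after deletion, 61.9% of the control level (-0.69, SE 0.14, limma adjusted p = 0.43), and its promoter window held neither a CHR nor a CCAAT box. Tpx2, which activates Aurora A on the spindle, read 8.83 and 8.70 against 8.34 and 8.21 (-0.49, SE 0.15); a second probe set had -0.78, and a further pair of dim ones had 0.52 and 0.46. Prc1, the bundler of the central spindle, read 9.49 and 9.49 against 9.20 and 8.80, and Hmmr, a spindle pole protein, had a change of -0.17 by its brightest probe set. The other probe sets of Hmmr, all above the filter level, had changes from -0.55 to -0.42. Ckap2, which promotes spindle microtubule growth, was the one member without a lower mean, at 9.47 and 9.56 in the controls against 9.82 and 9.27 after deletion, the deletion arrays lying on both sides of the controls. With both genes deleted, the order was different, with Ckap2 lowest, at 7.62 and 7.58 in the controls against 7.45 and 6.99 (-0.38, SE 0.20). Nusap1 read 7.67 and 7.45 against 7.61 and 7.41, overlapping, with a change of -0.05 and a 95% interval of -0.49 to 0.39. Tpx2, Prc1 and Hmmr had changes of -0.14, -0.06 and -0.06, and the probe sets of Prc1 and Hmmr there differed in sign.

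At the centromere and kinetochore chromosomes meet the spindle. The 5 genes read in both tables all had Twist1 deletion arrays below both controls, where 24.7% of all genes did. All 5 were lower at an unadjusted p under 0.05, where 5.81% of all genes were. Cenpf, a large kinetochore protein made in G2, read 9.05 and 9.18 in the controls against 8.66 and 8.33 after deletion (-0.62, SE 0.18, limma adjusted p = 0.502). Cenpa, the histone that marks centromeres, read 10.55 and 10.59 against 10.23 and 10.25 (-0.33, SE 0.12), and Birc5, the gene of survivin in the chromosomal passenger complex, 10.66 and 10.57 against 10.19 and 10.29 (-0.37, SE 0.12). Cenpe, a kinetochore motor, and Ndc80, which grips microtubules, had changes of -0.46 and -0.45. Nuf2, the partner of Ndc80, read 8.07 and 7.71 in the Twist1 controls against 7.25 and 7.07 after deletion, a change of -0.73 (SE 0.20), and is not counted among the 38. In the Twist1/p53 comparison Cenpf was again below both controls, at 8.65 and 8.31 against 7.74 and 7.85 (-0.68, SE 0.17, limma adjusted p = 0.132), the lowest change of the 38 in that comparison. Cenpa (-0.11) and Cenpe (-0.19) lay below by less. Cenpe was read there by another probe set, by which its Twist1 change was -0.20 in place of -0.46. A dimmer probe set of Cenpa had -0.71 there and -0.35 after Twist1 deletion. Birc5 read 10.06 and 10.04 against 10.21 and 10.04 (0.07, SE 0.10), and Ndc80 6.76 and 6.66 against 7.09 and 6.33, arrays on either side of the controls whose mean change was 0.0026.

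Of the 3 cytokinesis genes, Racgap1, which with Kif23 forms the central spindle scaffold, read 9.28 and 9.28 in the Twist1 controls against 8.44 and 8.65 after deletion, 60.1% of the control level (-0.74, SE 0.15, limma adjusted p = 0.43), or a change of -0.46 with the mean over its probe sets. In the Twist1/p53 table it read 8.76 and 8.72 against 8.34 and 8.36, both pairs tight (-0.39, SE 0.12, limma adjusted p = 0.168). Anln, which organises the contractile ring, was also below both Twist1 controls (10.63 and 10.57 against 10.14 and 10.17, -0.45, SE 0.12) and had a change of -0.12 with overlapping groups after Twist1/p53 deletion. Ect2, the exchange factor that switches on the ring, had Twist1 controls of 9.62 and 9.09 and deletion arrays of 9.44 and 9.09 (-0.08, SE 0.24), and after Twist1/p53 deletion both arrays lay above the controls, at 7.29 and 7.17 against 7.12 and 6.88 (0.23, SE 0.16). The last group, which holds the chromosome enzyme topoisomerase II (Top2a), the proliferation antigen Ki-67 (Mki67) and the G2/M activator Foxm1, had a median change of -0.12 after Twist1 deletion. Top2a read 10.997 and 11.16 in the Twist1 controls against 10.75 and 10.52 after deletion (-0.45, SE 0.14, limma adjusted p = 0.518). The change was -0.15 with the mean over its probe sets. Mki67 read 10.99 and 10.90 against 11.10 and 10.56, with deletion array 1 above the controls and array 2 below (-0.12, SE 0.20, 95% interval -0.65 to 0.40). Foxm1 read 7.24 and 7.35 against 7.30 and 7.19 (-0.05, 95% interval -0.48 to 0.38), a change that turned to 0.021 with quantile normalization. Its other probe sets above the filter level had changes of -0.47 and -0.21, and the mean over its probe sets gave -0.18. After Twist1/p53 deletion Mki67 was below both controls, at 9.46 and 9.19 against 9.58 and 9.67 (-0.30, SE 0.14), Foxm1 had a change of -0.26, and Top2a read 8.95 and 9.04 against 9.19 and 8.77, with a change of -0.02 that turned to 0.022 with quantile normalization and to 0.013 with the mean over its probe sets.

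**Figure D3:**
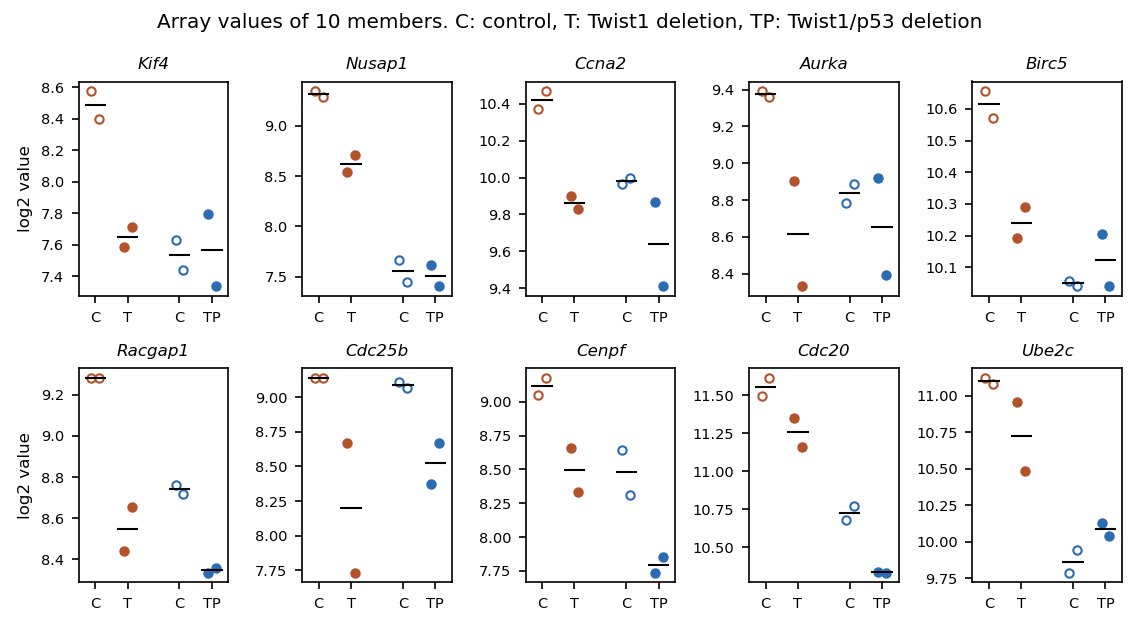
Log2 values of 10 of the G2 and mitosis genes in every array, with open circles for controls, filled circles for deletion arrays and a bar at each group mean (brown: Twist1 table, blue: Twist1/p53 table, whose levels are not comparable with each other; each panel has its own axis, which does not start at 0). Ccna2, Racgap1, Cdc25b, Cenpf and Cdc20 lie below both controls in both tables. Ube2c lies below both controls after Twist1 deletion and above both after Twist1/p53 deletion.

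After Twist1/p53 deletion the G2 and mitosis genes as a whole read closer to their controls, with a few members low. Of 38 genes, 27 had a lower mean (53.1% of all 13667 genes tested), and the median change was -0.11, against -0.02 over all genes. Both deletion arrays lay below both controls in 11 of 38, near the 29.8% of all genes. They lay above both controls in 3 of 38, below the 24.5% of all genes. With limma 0 of 38 had an adjusted p under 0.05, where 1.8% of all genes did. At an unadjusted p under 0.05, 4 of 38 were lower (Cdc20, Cenpf, Cdc25b and Racgap1), again near the 11.4% of all genes. At that p 0 were higher, below the 9.79% of all genes. The deletion arrays of this table differed from each other. In deletion array 1 the members' median deviation from the control mean was 0.033 and 14 of 38 lay below it, whereas in array 2 the median was -0.30 and 32 of 38 lay below, while the median over all genes was -0.00059 and -0.04. The median member change was thus -0.30 without deletion array 1 and 0.033 without deletion array 2. Without array 1, limma called 12 members, all lower (Aurka, Ccna2, Cdc20, Cdc25b, Cenpf, Ckap2, Foxm1, Kif20a, Kif23, Kif2c, Mki67 and Racgap1), but 27.6% of all genes were called as well, and without array 2 it called Cdc20, Cdc25b, Cenpf and Racgap1, with 24.6% of all genes called, in both cases with the lone deletion array assumed to vary like the controls. Without control 1 or control 2 the count at an unadjusted p under 0.05 was 0 or 1, when 7.51% and 8.35% of all genes had such a p in either direction, against 21.2% with all arrays.

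The arrays of this table also differed in other cells' markers. The log2 summed level of the fibroblast list (5 of 6 markers past the filter) was 11.015 and 11.21 in the controls, 10.28 in deletion array 1 and 8.19 in deletion array 2, the array in which the members read lowest, and Lum in that list was called lower (-1.10). Of the 5 markers 3 were lower and 2 higher, with a median change of -1.10, and the summed level followed the collagen genes Col1a1 (-2.52) and Col3a1 (-2.04). Dcn ran the other way, at 5.04 and 4.92 in the controls against 7.81 and 5.85 in the deletion arrays (1.85, SE 0.66), and Col1a2 had a change of 0.0025. Markers of differentiating epidermis were lower in 7 of 7 (median -1.09), with Lor called, and their summed level was 14.1 and 14.2 in the controls against 12.6 and 13.8. The leukocyte gene Cd74, which epithelial cells can also express, was called higher (2.40), while Ptprc did not pass the filter. The leukocyte, endothelial, melanocyte and muscle lists had median changes of 0.06, -0.59, -0.01 and 0.06 over 10 of 12, 3 of 5, 4 of 4 and 3 of 4 markers past the filter. The Gapdh 3′ minus 5′ difference was -0.026 and 0.064 in the controls against -0.019 and -0.039 in the deletion arrays, and the spike-ins ran from 3.73 to 3.77 over the 4 arrays. The part of these measures in the changes of the G2 and mitosis genes was not tested.

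**Figure D4:**
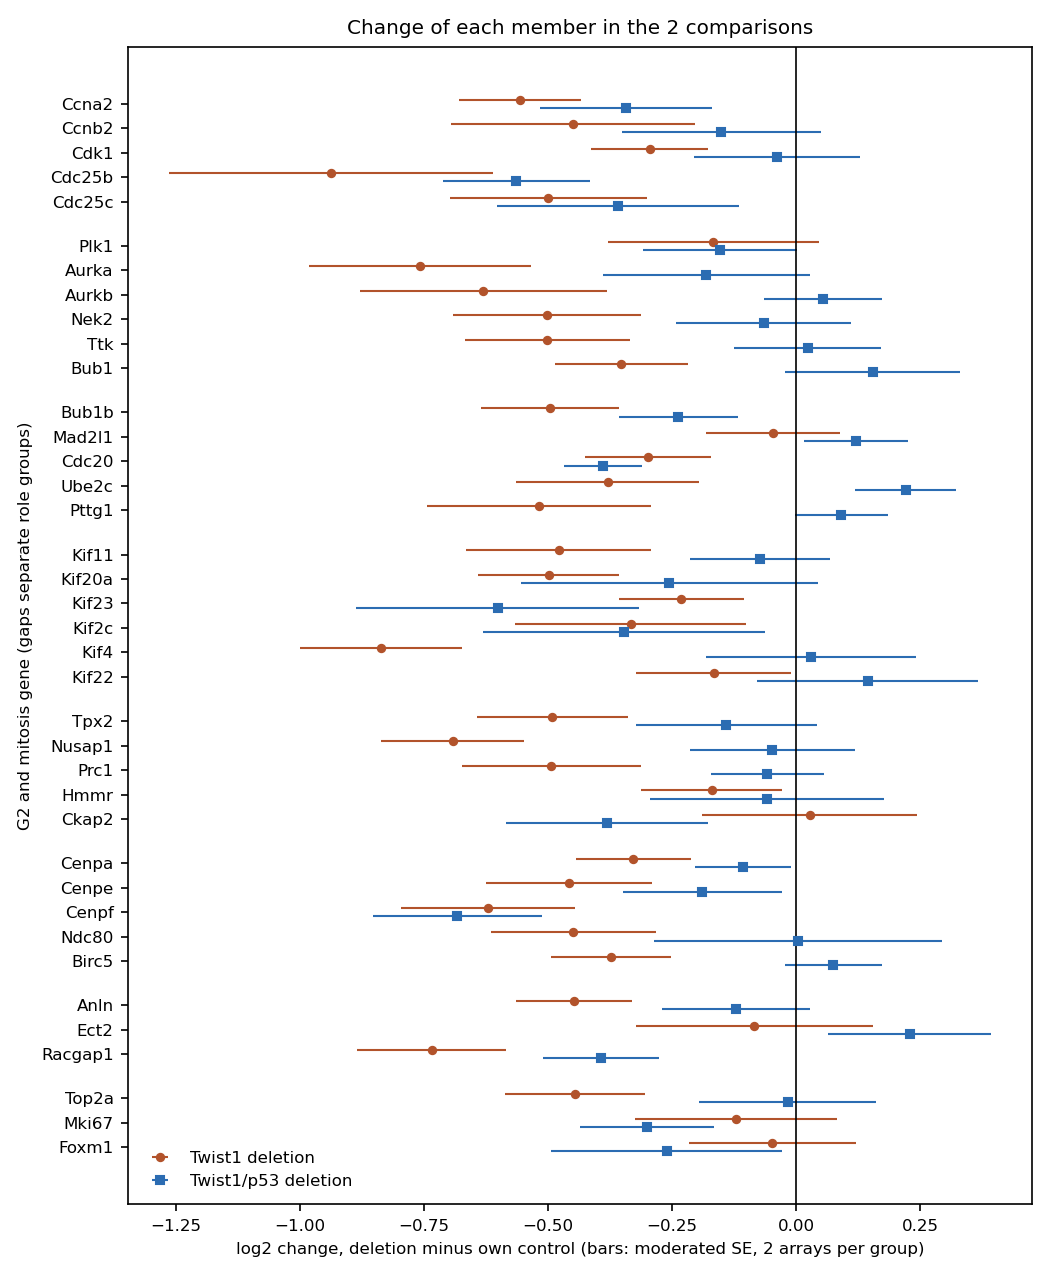
Log2 change of each G2 and mitosis gene, deletion minus its own control, after Twist1 deletion (brown circles) and after Twist1/p53 deletion (blue squares), with bars of 1 moderated SE on each side (2 arrays per group). After Twist1 deletion 37 of 38 points lie left of 0 around a median of -0.45, and after Twist1/p53 deletion 27 of 38 around a median of -0.11.

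Set side by side, 26 of the 38 genes had lower means in both comparisons, where 35% of the genes tested in both did, and 11 were lower after Twist1 deletion and higher after Twist1/p53 deletion (Aurkb, Ttk, Bub1, Mad2l1, Ube2c, Pttg1, Kif4, Kif22, Ndc80, Birc5 and Ect2), where 20.7% of all were. In 9 genes both deletion arrays lay below both controls in both tables (Ccna2, Cdc25b, Bub1b, Cdc20, Kif23, Cenpa, Cenpe, Cenpf and Racgap1), against 11.3% of all genes. Cdc25b, Cenpf and Racgap1 were lower at an unadjusted p under 0.05 in both, against 1.69% of all genes. The difference between the deletions was tested directly, by taking the Twist1 change from the Twist1/p53 change in 1 fit of all 8 arrays over 12097 genes, with probe sets matched between the array types. It uses the same probe set on both sides, so that some changes differ from those above. The difference was above 0, that is, the Twist1/p53 change was the higher one, in 34 of 38 genes (52.8% of all), with a median of 0.33 against 0.02 over all genes. The median was 0.16 without Twist1/p53 deletion array 1 and 0.53 without array 2. With limma 0 of 38 had an adjusted p under 0.05, where 0.182% of all genes did, and 8 of 38 had a higher change at an unadjusted p under 0.05, against 6.24% of all. These 8 were Aurkb, Kif4, Birc5, Nusap1, Ube2c, Kif11, Pttg1 and Ttk. For Pttg1 the dimmest probe set ran the other way, with changes of -0.48 after Twist1 deletion and -1.24 after Twist1/p53 deletion. Its remaining one ran the same way (-0.43 and 0.09). Aurkb had the lowest limma adjusted p, 0.266, for a difference of 0.96 (SE 0.25), by a probe set whose changes were -0.90 after Twist1 deletion and 0.05 after Twist1/p53 deletion. By its other probe set these changes were -0.63 and -0.33, which lie closer together. Kif4 followed with 0.87 (SE 0.27), Nusap1 with 0.64 (SE 0.21) and Birc5 with 0.45 (SE 0.15). At the other end, Cenpf had a difference of -0.06 with a 95% interval of -0.65 to 0.52, Mki67 of -0.18 (-0.81 to 0.45) and Ckap2 of -0.41 (-1.16 to 0.34), intervals wide enough to hold differences of either sign. By role, the median difference was 0.52 for the mitotic kinases, 0.35 for the spindle microtubule proteins, 0.34 for the kinesins, 0.33 for cytokinesis, 0.30 for the cyclins, Cdk1 and Cdc25 phosphatases, 0.26 for the checkpoint and anaphase-promoting complex, 0.22 for centromere and kinetochore and -0.08 for the group of Top2a, Mki67 and Foxm1. The array types differ between the deletions, so an array type that reads changes at another scale and a true difference cannot be told apart. With both tables rescaled to 1 spread 34 of 38 were again above 0. This rescaling uses 1 factor per table, taken from the spread of the levels. It therefore cannot decide whether the array types read changes at different scales. Where the 2 changes of a gene have opposite signs, no such factor can turn the sign of the difference.

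The readings of the promoter classes shown above are given as a description. The 15 genes with a CHR and at least 2 CCAAT boxes had a median Twist1 change of -0.35, with 15 of 15 lower, and the other 17 genes with a window had -0.46, with 16 of 17 lower. The 4 genes with neither motif, Mad2l1, Pttg1, Nusap1 and Birc5, had a median of -0.45. In the Twist1/p53 table the medians were -0.04 for the 15, -0.12 for the other 17 and 0.08 for the 4. Cdk1 and Ube2c, both with a CHR within 50 bases before the start and CCAAT boxes upstream, thus had Twist1/p53 changes of -0.04 and 0.22, and Cdc20, with the same elements, -0.39.

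Other probe sets of the same genes told much the same of Twist1 deletion. Of all 84 probe sets that name 1 of the 38 genes, 75 were lower (median -0.44), and of the 73 above the level of the filter, 69 were. Only Kif2c and Tpx2 had probe sets above that level on both sides of 0, and Bub1b, Foxm1, Kif23, Nek2 and Top2a had a dimmer one of opposite sign. After deletion of both genes, 48 of 70 probe sets were lower (median -0.12), and 7 genes had probe sets above the filter level on both sides of 0 (Aurkb, Bub1b, Hmmr, Kif22, Prc1, Pttg1 and Top2a), with Foxm1, Nek2 and Nusap1 doing so by a dimmer one.

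Other cell cycle genes were read from 4 further lists, none of which had a gene called by limma in either comparison. Of further mitotic genes (condensins, kinetochore and spindle genes not among the 38), 45 of 50 were lower after Twist1 deletion, with a median of -0.41, and 37 had no overlap on the lower side (24.7% of all genes). The spindle pole gene Aspm (-0.94, SE 0.16) and the checkpoint gene Mad1l1 (-1.10, SE 0.21) had the lowest moderated t, and the cytokinesis kinase Cit (0.29, SE 0.16) and Troap (0.14, SE 0.17), which binds the cytoskeleton, the highest. The Twist1/p53 comparison had 33 of 48 lower (median -0.09), 16 below both controls and 10 above both, where 29.8% and 24.5% of all genes were. They ran from the kinesin Kif20b (-1.15, SE 0.18) and Cks2, a Cdk-binding protein (-0.35, SE 0.08), to the condensin gene Ncapg2 (0.65, SE 0.21) and Pkmyt1, a kinase that inhibits Cdk1 (0.50, SE 0.13). DNA replication genes were lower in 34 of 34 after Twist1 deletion, 26 of them below both controls (24.7% of all genes), with a median of -0.34, from Rrm1, a subunit of ribonucleotide reductase (-0.50, SE 0.12), and Gins1, a part of the replicative helicase (-0.58, SE 0.17), to Pold1, a polymerase subunit (-0.08, SE 0.15), and Orc6, of the origin recognition complex (-0.0011, SE 0.13). The Twist1/p53 comparison had 18 of 34 lower (median -0.06), 8 below both controls and 9 above both. They ran from Rpa2, which coats single-stranded DNA (-0.70, SE 0.13), and the ligase Lig1 (-0.21, SE 0.08) to Orc6 (0.34, SE 0.16) and Rfc4, of the clamp loader (0.29, SE 0.12).

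The G1 cyclins, their kinases and inhibitors divided in both comparisons, with 8 of 14 lower after Twist1 deletion (median -0.18) and 9 of 14 after Twist1/p53 deletion (median -0.06). Cdkn2d, a Cdk4 and Cdk6 inhibitor, was at the low end in both (-0.82, SE 0.19, and -0.60, SE 0.15), beside its relative Cdkn2c (-0.77, SE 0.18) after Twist1 deletion and Ccne1, a cyclin of the entry into S phase (-0.22, SE 0.14), after Twist1/p53 deletion. The D-type cyclin Ccnd2 was at the high end in both (1.11, SE 0.34, and 1.28, SE 0.51), beside the inhibitor Cdkn1c (0.25, SE 0.21) after Twist1 deletion and the D-type cyclin Ccnd3 (0.21, SE 0.13) after Twist1/p53 deletion. Regulators of G2/M transcription were lower in 18 of 22 after Twist1 deletion (median -0.21) and 11 of 21 after Twist1/p53 deletion (median -0.02). Nfya, the subunit with which NF-Y recognises CCAAT, was among the lowest in both, at 7.42 and 7.71 in the Twist1 controls against 7.22 and 6.95 (-0.48, SE 0.20) and at 6.95 and 7.07 in the Twist1/p53 controls against 6.60 and 6.46 (-0.48, SE 0.15). The repressor E2f7 (-0.57, SE 0.18) lay beside it after Twist1 deletion and the activator E2f2 (-1.22, SE 0.29) after Twist1/p53 deletion. At the high end were Cdkn1a and the MuvB gene Lin52 (0.17, SE 0.16) after Twist1 deletion and the MuvB genes Lin9 (0.70, SE 0.21) and Lin54 (0.37, SE 0.16) after Twist1/p53 deletion.

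**Figure D5:**
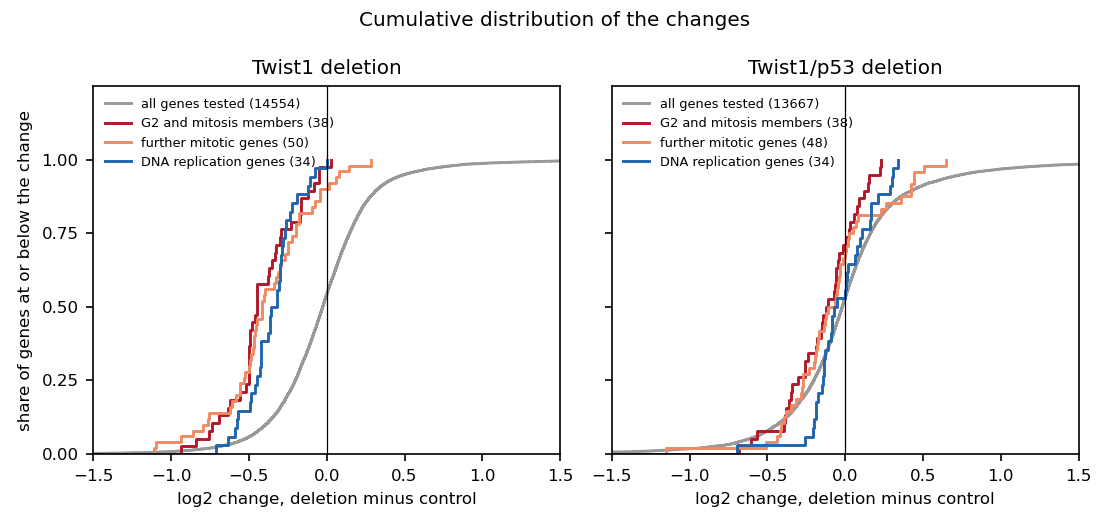
Share of genes (vertical axis) whose log2 change, deletion minus control, is at or below the value on the horizontal axis, for all genes tested (grey), the 38 G2 and mitosis genes (dark red), further mitotic genes (orange) and DNA replication genes (blue). After Twist1 deletion the 3 cell cycle curves lie left of that of all genes, with medians of -0.45, -0.41 and -0.34 against -0.03, and after Twist1/p53 deletion their medians are -0.11, -0.09 and -0.06 against -0.02.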

How the data were processed

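RNA of sorted tumour epithelial cells was measured on 8 arrays, in 4 groups of 2. Per the labels' protocols, total RNA was extracted with a micro kit and hybridised at an array facility. The authors deposited 2 value tables, 1 per array type, with 1 value per probe set and array. That these deposited values are on a log2 scale is read from the values (2.76 to 14.4, array medians nearly equal within a table). The software and the normalization are not given in the sources used here. Array medians differ between the tables (5.42 to 5.44 and 4.81 to 4.82), as do the array types, so no level is compared between them. Scanner files were not used. With 2 arrays per group, their number limits the precision.

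Probe sets with 1 gene symbol in the platform annotation (34945 of 45101 and 28864 of 45083) were used, and the 932 and 551 with several symbols and those with none were left out. Of these, 34741 and 28655 matched the RefSeq gene table (GRCm38.p6) by Entrez number. In 27 of the 38 genes the brightest probe set was the same in both tables. The filter took out genes with a probe set mean below the 20th percentile of the table and kept 14554 and 13667. Changes were tested with limma 3.58.1 in R 4.3.3 (lmFit, then eBayes with its trend option) and called at a Benjamini-Hochberg adjusted p under 0.05 over all genes tested. Errors are moderated SE. The scripts were tested on simulated data.

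The genes, lists and tests were chosen with earlier results of these data known. Named by rule were Twist1, Cdkn1a, every member that passed a test, the extremes of moderated t in each role group, those with probe sets of opposite sign, and of each further list the 2 highest and 2 lowest t per comparison. The other members and the markers were named after their values were seen. The labels share replicate numbers 1 and 2, and the deviations of same-numbered arrays correlated at 0.03 and -0.02, so they were not treated as pairs. The alternatives tried were the replicate block, leaving out each array, a robust fit, a fit without the trend, averaging the probe sets of a gene, dropping the filter or raising it to the 50th percentile, centring each array on its median, and quantile normalization. Rescaled tables and each table's own probe set were added for the difference after the data were seen. The level of the p53 gene is not reported here.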

Additional observations from a re-analysis of the deposited data

Results flagged for a closer look

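Ube2c, the ubiquitin-conjugating enzyme of the anaphase-promoting complex, lay on opposite sides of its controls in the 2 comparisons, in every array. Both Twist1 deletion arrays lay below their controls (a log2 change of -0.38) and both Twist1/p53 deletion arrays lay above theirs (0.22). The difference of 0.60 (SE 0.23) in the fit of all 8 arrays had a limma adjusted p = 0.429, so it did not pass the correction over all genes. It was the only one of the 38 genes with this pattern. Of all genes, 24.7% lay below both controls after Twist1 deletion and 24.5% above both after Twist1/p53 deletion. How many genes did both was not counted, so the pattern is not shown to be particular to Ube2c. The array types differ between the comparisons, so array type and deletion cannot be told apart here.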

How the results depend on the processing

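No alternative other than leaving out an array changed a count of calls among the 38 genes, which stayed at 0 in both comparisons and in the difference, or moved a median by more than the spread between replicates. With the replicate block 0 members were called in each, and the medians were -0.45, -0.11 and 0.33. Over all genes the calls were 5, 246 and 22, and they were 0, 4 and 2 with the block, 1 and 3 for the first and last with the filter at the 50th percentile, and 3 for the first with the mean over probe sets. Leaving out an array, they ran from 0 to 56, 0 to 3775 and 9 to 142. Single genes were followed only where they had the highest or the lowest moderated t of their role group in a comparison, 32 results. Of their 256 values under the alternatives that keep all arrays, 253 kept their direction and their side of the threshold. Other members, such as Aurkb and Pttg1 after Twist1/p53 deletion, whose sign depends on the probe set, are outside this count. The exceptions were Foxm1 after Twist1 deletion (0.021 with quantile normalization) and Top2a after Twist1/p53 deletion (0.022 with quantile normalization and 0.013 with the mean over probe sets).

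Leaving out each array in turn gave a median Twist1 change from -0.48 to -0.34 and a median Twist1/p53 change from -0.30 to 0.033. After Twist1/p53 deletion the genes lower ran from 14 to 32, those without overlap from 16 to 35 (14 with all arrays) and those called from 0 to 12. With all arrays 54.3% of all genes had no overlap and without an array 69% to 84.4% did, since 1 array against 2 overlaps less easily. The median difference ran from 0.16 (without Twist1/p53 deletion array 1) to 0.53 (without array 2). Of the genes followed singly, those whose sign turned after Twist1 deletion were Ect2 (-0.35 to 0.18), Ckap2 (-0.25 to 0.30), Foxm1 (-0.10 to 0.0064), Mad2l1 (-0.15 to 0.053) and Plk1 (-0.43 to 0.092). After Twist1/p53 deletion they were Hmmr (-0.34 to 0.22), Top2a (-0.23 to 0.20), Birc5 (-0.0076 to 0.16), Kif22 (-0.12 to 0.41), Cdk1 (-0.25 to 0.17) and Plk1 (-0.32 to 0.013). Members not followed singly turned as well, so the list is not complete. Examples are Mki67 after Twist1 deletion and Ndc80 after Twist1/p53 deletion, whose deletion arrays lay on either side of the controls. Groups of 2 arrays, sex and Cre that go with the deletion, and array types that go with the second deletion limit every comparison.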
